A study of Mus musculus with 12 samples.

Results

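Of the 55416 genes counted, 50 genes that regulate chromatin were examined in inner hair cells (IHCs) and outer hair cells (OHCs) of the newborn mouse cochlea. The members were listed by gene name: 9 CHD remodellers, 12 subunits of the BAF remodelling complex, 4 genes of Polycomb repressive complex 2 (PRC2), 5 genes for histone demethylases and the CoREST corepressor, 11 histone deacetylases (HDACs), 6 genes of DNA methylation and 3 MTA subunits of the NuRD complex. All 50 of 50 names matched a gene in the count files. Each cell type was represented by 6 libraries from cells sorted at postnatal day 0 (P0) from the organ of Corti, the sensory epithelium that holds both kinds of hair cell, and every library is labelled wild type (WT). IHCs were sorted as Atoh1-GFP positive cells, whereas OHCs were sorted by Atoh1-GFP together with R26-TdTomato switched on by Insm1-GFP-Cre, in which TdTomato marks cells with a history of Cre from Insm1. The OHC gate therefore rests on Insm1, a gene that OHCs express transiently, and for the sort the methods describe 1 cross that labels both cell types, IHCs by GFP alone, while the labels do not give the alleles of the pups behind each IHC pool. The libraries were pools, and nothing in the labels ties a pool to particular animals, so the p-values measure the spread between these pools.

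DNA in the nucleus is wound around histones, and genes are opened or closed by enzymes that slide nucleosomes (CHD and BAF remodellers), by enzymes that add or remove acetyl and methyl groups on histone tails, and by methylation of the DNA itself. In the inner ear the best known of these genes is Chd7, whose loss of function in people causes CHARGE syndrome, with malformed ears and deafness. Insm1 and Gfi1, both transcription factors of developing hair cells, carry a SNAG domain that binds the Kdm1a and CoREST corepressor with its HDACs.

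Most of the chromatin regulators were well above 10 CPM (counts scaled to a common library size) in both cell types. Of the 49 tested, 3 were called different between the cell types, about the share called over all genes. Arid1a, a DNA-binding subunit of BAF, Dnmt3a, the enzyme that methylates previously unmethylated DNA, and Mta1, a NuRD subunit, were higher in IHCs by 1.67-, 1.87- and 2.79-fold (fold changes from the fit). No chromatin regulator passed the test in the OHC direction, although all OHC pools lay above all IHC pools in Hdac11, at 4.77-fold. Of the 50 genes, 49 had enough counts to be tested in edgeR's quasi-likelihood fit over 13269 genes, and 3 of them (6.12%) were called higher in IHCs at an adjusted p under 0.05, beside 3.81% of all genes tested. In either direction 6.26% of all genes were called, about the share of the list. In the OHC direction 0 of 49 were called, beside 2.44% of all genes. At an unadjusted p under 0.05 the counts were 10 of 49 towards IHCs, beside 12.4% of all genes, and 1 of 49 towards OHCs, beside 9.36%. DESeq2 called 5 and 1 of them, beside 7.94% and 9.43% of the genes it tested, and the exact test of edgeR called 4 and 1, beside 5.66% and 3.91%. The calls of Arid1a, Dnmt3a and Mta1 held in 5, 3 and 2 of the 12 fits with 1 library left out. With replicate number as a block in the fit, 0 chromatin regulators were called in IHCs and 1 in OHCs.

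The promoters are shown for the 3 genes that passed the test and for Hdac11, which had the lowest p towards OHCs. Whether the DNA methylation enzymes of the list act on these promoters was not tested. Each is a window of 300 bases from RefSeq (table build GRCm38.p6), with 250 bases before the start of transcription and 50 after it, read 5′ to 3′ on the gene's strand, with every CpG (the letters CG, the pair at which Dnmt3a adds methyl groups) in capitals. Coordinates are those of the exact and single match in GRCm39. Dnmt3a has 2 windows because it has starts far apart (a window that overlaps the first is left out), and for Arid1a, which also has 2, the window at the outer end of the gene is printed and the one inside it is given by its count. Counts per gene do not say which start was used.
Arid1a: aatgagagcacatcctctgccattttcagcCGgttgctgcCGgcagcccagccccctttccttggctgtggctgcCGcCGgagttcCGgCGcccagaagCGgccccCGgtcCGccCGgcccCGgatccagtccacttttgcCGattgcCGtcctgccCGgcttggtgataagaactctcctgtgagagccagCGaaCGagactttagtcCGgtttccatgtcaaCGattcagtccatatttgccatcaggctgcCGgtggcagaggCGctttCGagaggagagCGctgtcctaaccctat
Dnmt3a, first start: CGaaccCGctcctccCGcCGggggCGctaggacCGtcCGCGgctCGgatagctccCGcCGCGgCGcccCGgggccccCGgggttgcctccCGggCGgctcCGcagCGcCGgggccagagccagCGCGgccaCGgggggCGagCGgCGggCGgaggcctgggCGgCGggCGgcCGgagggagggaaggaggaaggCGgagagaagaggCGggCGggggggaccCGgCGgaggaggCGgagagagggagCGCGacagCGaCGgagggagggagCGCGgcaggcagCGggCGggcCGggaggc
Dnmt3a, later start: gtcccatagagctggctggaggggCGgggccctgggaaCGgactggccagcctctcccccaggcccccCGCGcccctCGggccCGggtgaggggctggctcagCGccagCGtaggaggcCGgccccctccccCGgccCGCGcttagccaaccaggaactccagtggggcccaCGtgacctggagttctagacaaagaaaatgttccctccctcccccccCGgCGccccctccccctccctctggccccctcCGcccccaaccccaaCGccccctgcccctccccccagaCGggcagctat
Mta1: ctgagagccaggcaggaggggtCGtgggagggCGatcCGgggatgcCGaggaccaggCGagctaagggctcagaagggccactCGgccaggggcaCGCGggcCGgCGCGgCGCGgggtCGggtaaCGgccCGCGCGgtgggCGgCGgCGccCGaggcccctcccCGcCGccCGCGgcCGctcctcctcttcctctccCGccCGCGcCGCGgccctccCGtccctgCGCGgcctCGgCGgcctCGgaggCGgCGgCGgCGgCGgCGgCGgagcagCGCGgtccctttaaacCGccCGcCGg
Hdac11: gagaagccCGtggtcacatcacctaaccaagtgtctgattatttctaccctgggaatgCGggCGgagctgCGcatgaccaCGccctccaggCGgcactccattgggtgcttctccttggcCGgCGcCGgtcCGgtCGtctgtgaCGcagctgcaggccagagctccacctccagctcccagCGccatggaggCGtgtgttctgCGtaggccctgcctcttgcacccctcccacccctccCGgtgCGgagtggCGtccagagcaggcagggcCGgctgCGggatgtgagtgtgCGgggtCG
In GRCm39, Arid1a (ENSMUSG00000007880) spans chr4:133406304-133484080 on the minus strand, and its printed window, chr4:133484031-133484330, held 22 CpGs. Its other window, chr4:133481247-133481546, held 36. The other genes lie on the plus strand. Dnmt3a (ENSMUSG00000020661) spans chr12:3856007-3964443, Mta1 (ENSMUSG00000021144) chr12:113061350-113101578 and Hdac11 (ENSMUSG00000034245) chr6:91133642-91151695. The windows of Dnmt3a were chr12:3856730-3857029 with 46 CpGs and chr12:3941494-3941793 with 18, that of Mta1 was chr12:113061648-113061947 with 50, and that of Hdac11 was chr6:91133547-91133846 with 22. Across the list, 39 of 50 genes had a promoter in the table, and 36 of these (92.3%) held at least 15 CpGs in the window with the most, beside 37.2% of the 27018 genes in the table. The median was 30 CpGs for the chromatin regulators and 8 for all genes in the table. That table is not limited to genes expressed in these cells, and the share among the genes tested here was not counted. Dense CpGs were found in promoters of genes that passed the test and of genes that did not, and methylation was not measured in these libraries.

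The pools were sequenced to 31490204 to 44017309 counts on genes in IHCs and to 29564827 to 39121988 in OHCs. Ribosomal RNA took 21.5% to 56.9% of the counts on genes in IHCs and 23.4% to 36.4% in OHCs, and IHC replicate 1, at the upper end, had a normalization factor of 0.486, while the other IHC libraries were at 0.932 or more. Most marker genes followed the labels: all 4 IHC markers (Fgf8, Slc17a8, Tbx2, Otof) were called higher in IHCs, and 3 of 4 OHC markers (Insm1, Bcl11b, Neurod6) in OHCs. The other OHC marker, Ikzf2, was not called and did not follow the labels, with means of 8.89 CPM in IHCs and 6.75 in OHCs. Insm1 drove the label by which OHCs were sorted, so it is no independent check. Of 10 genes listed as shared by all hair cells, 4 (Gfi1, Espn, Otof, Pvalb) were called in IHCs and 0 in OHCs. The 10 genes summed to 6190 to 9894 CPM in IHCs and 4748 to 6007 in OHCs. Much of that difference was Otof, also on the IHC list, with means of 2260 CPM in IHCs and 479 in OHCs. Myo6 and Cdh23 went the other way, with log2 fold changes (OHC against IHC) of 0.47 and 0.19, and neither was called. Supporting cell genes summed to 261 to 436 and 192 to 429.9 CPM, with Sox2 called in IHCs and Rlbp1 in OHCs (2 of 10). Markers of other cells also moved with cell type. A list of 7 spiral ganglion neuron genes, some of which hair cells themselves express, summed to 1018 to 1638 CPM in IHCs and 308 to 498 in OHCs (4 of 4 tested genes called in IHCs). Greater epithelial ridge genes summed to 828 to 1759 and 294 to 726 CPM (1 of 5 called in IHCs), and mesenchymal genes to 43.0 to 59.4 and 7.18 to 27.4 (0 of 6 called). Endothelial genes went the other way, at 0.196 to 5.06 CPM in IHCs and 11.6 to 202 in OHCs (5 of 6 called in OHCs), and Cldn5 had 0 counts in all IHC libraries. The part of these differences in the results below was not tested, and in pools fewer cells of a type and less RNA per cell cannot be told apart.

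**Figure D1:**
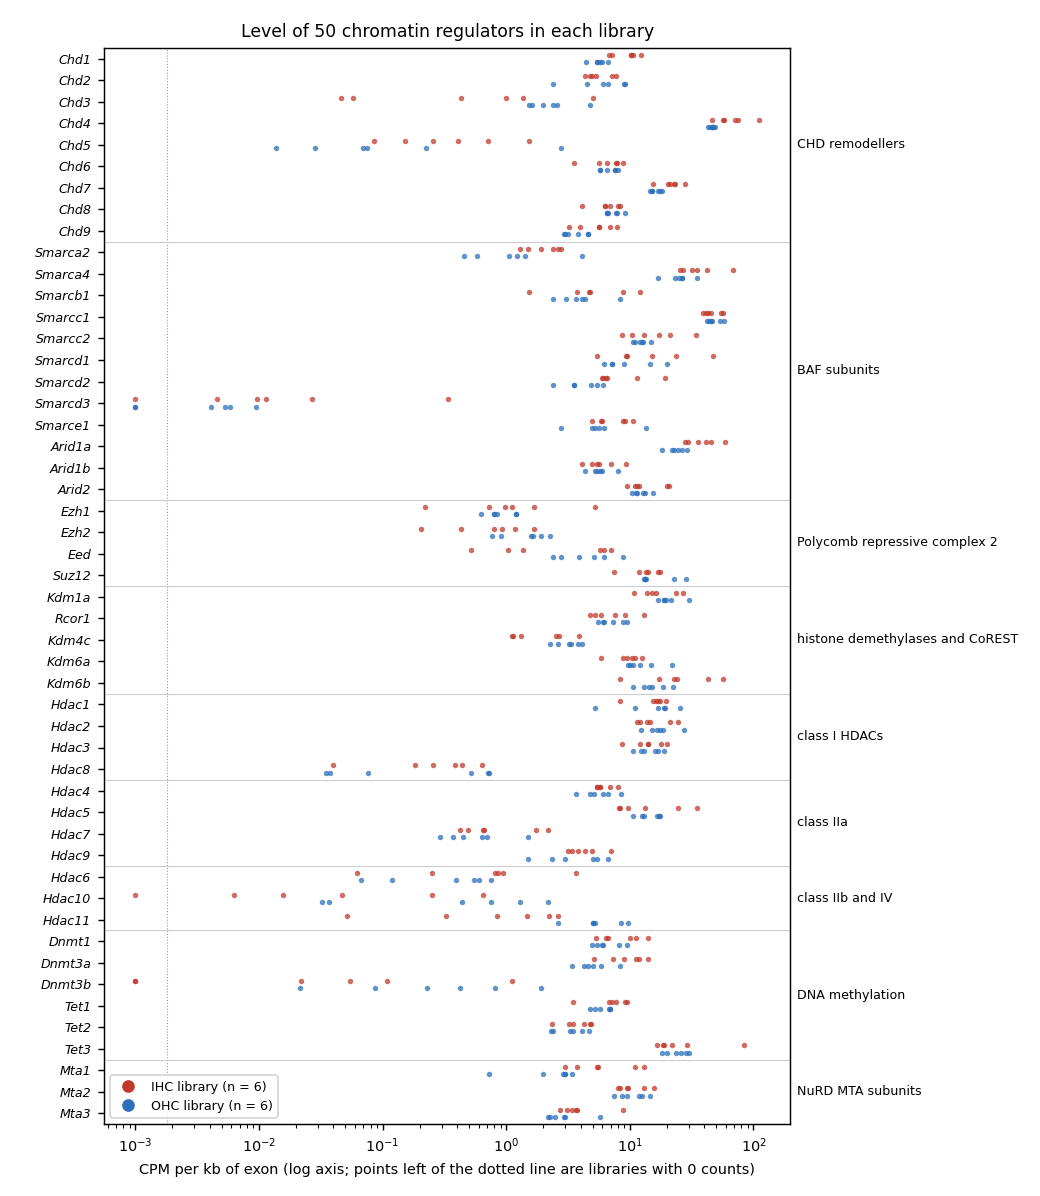
Level of each of the 50 chromatin regulators, grouped by role, in CPM per kilobase of exon on a log axis; each point is 1 library (red IHC, blue OHC, n = 6 each), and points left of the dotted line had 0 counts. Chd4, with means of 69.6 in IHCs and 46.2 in OHCs, lies farthest to the right with Smarcc1, and Smarcd3 farthest to the left.

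Levels differed far more between genes than between cell types, as the plot of levels by role shows. CPM were divided by the length of each gene's merged exons, so that genes can be compared. Chd4, the ATPase of NuRD, had the highest level, at 69.6 CPM per kb in IHCs and 46.2 in OHCs. Smarcc1, a core subunit of BAF, followed at 46.7 and 48.1. Arid1a stood at 39.7 and 23.7, Smarca4 (Brg1), the main ATPase of BAF, at 38.4 and 25.5, and Tet3, which oxidizes methylated cytosine, at 31.4 and 24.4. At the other end were Hdac8, at 0.324 and 0.352, Dnmt3b, at 0.216 and 0.578, Hdac10, at 0.162 and 0.790, and Smarcd3, at 0.0657 and 0.00416. Of the 50 genes, 42 had a mean over 10 CPM in each cell type, and 7 in IHCs and 8 in OHCs fell in the top 10% of tested genes by level per kb.

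The fold changes were centred slightly on the IHC side. Log2 fold changes are given as OHC against IHC, so that negative values mean higher in IHCs, and 29 of 49 were below 0, beside 51.8% of all genes tested. The median was -0.17, against -0.04 over all genes. Among genes over 50 CPM in either cell type, the medians were -0.18 for 34 chromatin regulators and -0.11 for 3711 genes. One gene, Chd1, had all 6 IHC libraries above all 6 OHC libraries (1 of 49, beside 2.37% of all genes), and 1 gene, Hdac11, the reverse (beside 2.22%). For 23 of the 49 genes the log2 fold change with 1.96 standard errors (SE) on either side lay within a 2-fold difference in both directions, and for the other 26 a 2-fold difference lies inside the interval. The factor 1.96 is that of a normal distribution. Intervals from the quasi-likelihood test itself would be somewhat wider, so 23 is an upper count.

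**Figure D2:**
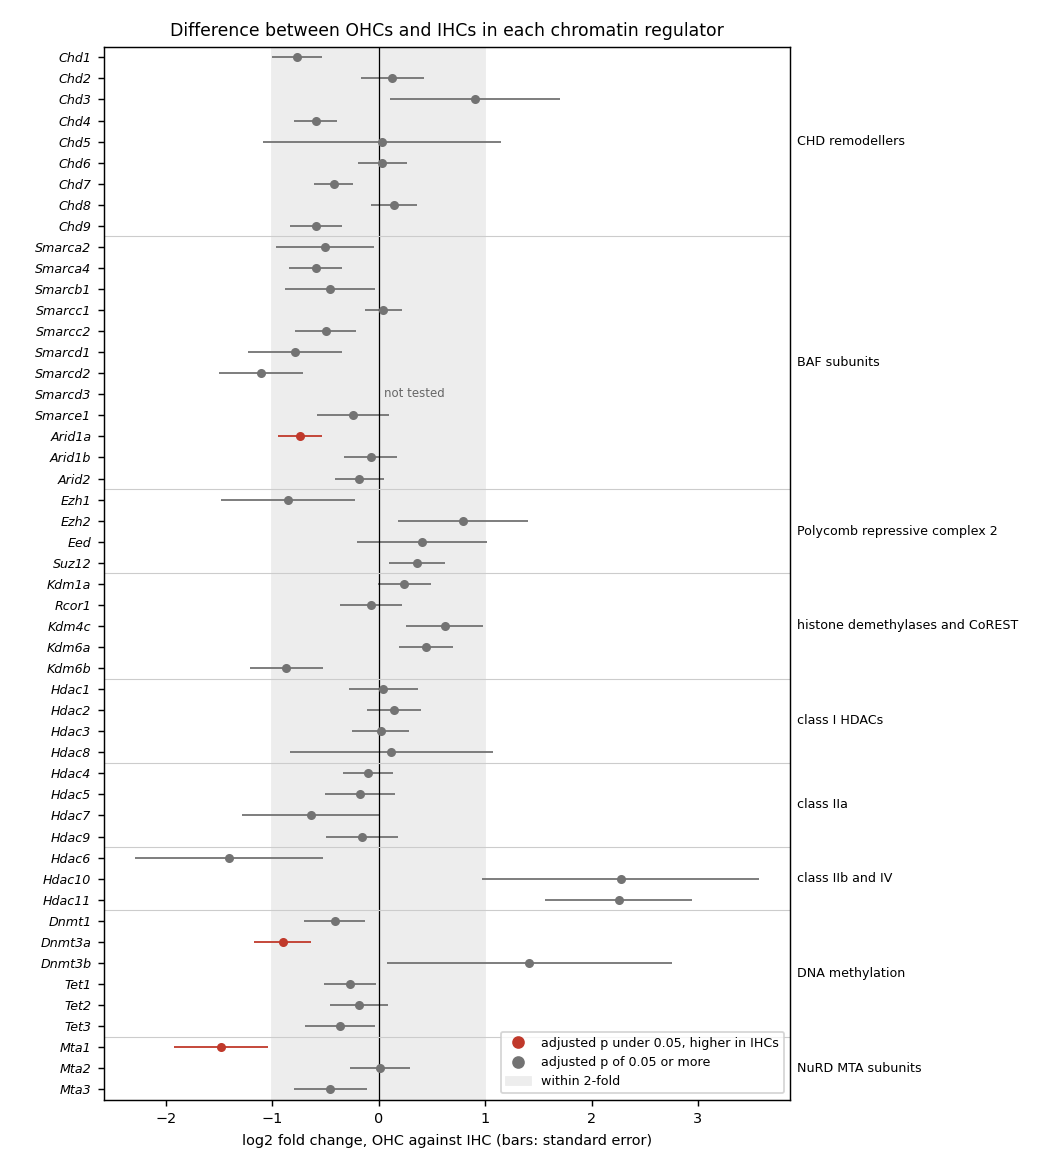
Log2 fold change of the 49 tested chromatin regulators, OHC against IHC, with bars of 1 SE; red points had an adjusted p under 0.05, grey points did not, and the shaded band is a difference within 2-fold. The 3 red points, Arid1a, Dnmt3a and Mta1, lie left of 0, and the points farthest right, Hdac10 and Hdac11, lie at 2.27 and 2.25.

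The CHD remodellers are ATPases that move nucleosomes, and 0 of the 9 passed the test. Chd1, which acts along transcribed genes, ranged from 71.2 to 129.8 CPM in IHCs (median 107) and from 46.6 to 69.7 in OHCs (median 59.0). Its ranges did not meet, since the lowest IHC pool was just above the highest OHC pool. It had a log2 fold change of -0.77 (SE 0.23) with an adjusted p of 0.0535 in edgeR. It passed under both other normalizations, DESeq2, the exact test of edgeR and limma-voom, and when either IHC replicate 1 or IHC replicate 5 was left out.

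Chd4 ranged from 426 to 1025 CPM in IHCs (median 593) and from 396 to 452 in OHCs (median 431). 5 of 6 IHC pools were above every OHC pool, and the highest, IHC replicate 1, stood well above the other IHC pools. The log2 fold change was -0.59 (SE 0.20, adjusted p = 0.0826 in edgeR). It was -0.42 without IHC replicate 1, and it passed only when IHC replicate 5, the lowest of the IHC pools, was left out (adjusted p = 0.0435). The OHC pools differed little in Chd4, at 426 ± 20.3 CPM (SD, n = 6), beside 642 ± 211 in IHCs.

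Chd7 ranged from 232 to 421 CPM in IHCs (median 326) and from 218 to 272 in OHCs (median 239). Here too 5 of 6 IHC pools lay above every OHC pool, with a log2 fold change of -0.42 (SE 0.18) that did not pass (adjusted p = 0.176 in edgeR) and a range of -0.51 to -0.35 when 1 library was left out. Its close relative Chd8, which restrains Wnt signalling, was at 111 ± 25.1 CPM in IHCs and 123 ± 16.7 in OHCs (SD, n = 6 each). The log2 ratio of Chd8 to Chd7 per kb within a library had a median of -1.59 in IHCs and -1.16 in OHCs, with overlapping ranges.

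Among the other CHD genes, Chd9 had a log2 fold change of -0.59 (SE 0.25, adjusted p = 0.165), and Chd2, Chd6 and Chd8 had values of 0.13, 0.03 and 0.15. The NuRD ATPases Chd3 and Chd5, which replace Chd4 in some neurons, were low and uneven. Chd3 ranged from 0.393 to 42.5 CPM in IHCs and from 12.9 to 40.2 in OHCs. Chd5 ranged from 0.817 to 14.8 and from 0.133 to 26.9, so that a single pool set each maximum. Per kb, Chd3 stayed far below Chd4 in every library, with a median log2 ratio of -6.89 in IHCs and -4.40 in OHCs. Exons of Chd2 share 14.2% of their bases with Chaserr on the same strand, so its counts are less certain.

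BAF complexes are built around the ATPase Smarca4 or Smarca2, and 1 of the 11 tested subunits passed, Arid1a in IHCs. Arid1a ranged from 356 to 748 CPM in IHCs (median 485) and from 231 to 367 in OHCs (median 297). The 5 higher IHC pools lay above every OHC pool, and the lowest, IHC replicate 4, lay inside the OHC range. The log2 fold change was -0.74 (SE 0.21) and the adjusted p 0.0349 in edgeR. Leaving out 1 library kept the call in 5 of 12 fits, those without IHC replicate 1, 2, 4 or 6 or OHC replicate 4, with adjusted p from 0.0216 to 0.0853 over the 12. The call was thus lost without IHC replicate 3 or 5, or OHC replicate 1, 2, 3, 5 or 6.

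Arid1b, the alternative to Arid1a in the same complex, was at 78.6 ± 24.0 CPM in IHCs and 74.6 ± 15.6 in OHCs (SD, n = 6 each), and the log2 fold change was -0.08 (SE 0.25). Arid2, which belongs to the PBAF form of the complex, was at 171 ± 60.5 and 150.5 ± 21.8 CPM. Within a library the log2 ratio of Arid1b to Arid1a per kb had a median of -2.53 in IHCs and -2.08 in OHCs, and the ranges overlapped.

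Smarca4 ranged from 168 to 450.2 CPM in IHCs (median 220.1) and from 111 to 229.9 in OHCs (median 169), with 3 of 6 IHC pools above every OHC pool. The log2 fold change was -0.59 (SE 0.25, adjusted p = 0.169 in edgeR). Smarca2 was the minor ATPase in both cell types, with a median log2 ratio to Smarca4 per kb of -4.08 in IHCs and -4.60 in OHCs. The core subunits Smarcc1, Smarcc2, Smarcb1 and Smarce1 had log2 fold changes of 0.04, -0.50, -0.46 and -0.24, and none passed. Smarcc1 was the steadiest of these, at 398 ± 62.7 CPM in IHCs and 410.3 ± 52.9 in OHCs (SD, n = 6 each), with an interval of -0.30 to 0.38 on the log2 scale.

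The Smarcd subunits link BAF to transcription factors. Smarcd2 ranged from 26.3 to 85.2 CPM in IHCs and from 10.6 to 27.2 in OHCs, with 4 of 6 IHC pools above every OHC pool. Its log2 fold change of -1.10 (SE 0.39) had an adjusted p of 0.102 in edgeR. DESeq2 called it, and 29.0% of its exonic bases are shared with genes on the opposite strand, most of them with Psmc5. Smarcd1 had a log2 fold change of -0.79 (SE 0.44, adjusted p = 0.310). Smarcd3, known from heart muscle and neurons, was the 1 gene without enough counts to be tested: it had at most 2 counts in any OHC library, 0 to 1.94 CPM in IHCs with a median of 0.0599, and shares 43.4% of its exonic bases with Chpf2. Of the 11 tested subunits 10 had a log2 fold change below 0, beside 51.8% of all genes tested, with a median of -0.50. Among 22 other genes of BAF, ISWI and INO80, described below, 12 were below 0, with a median of -0.02.

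**Figure D3:**
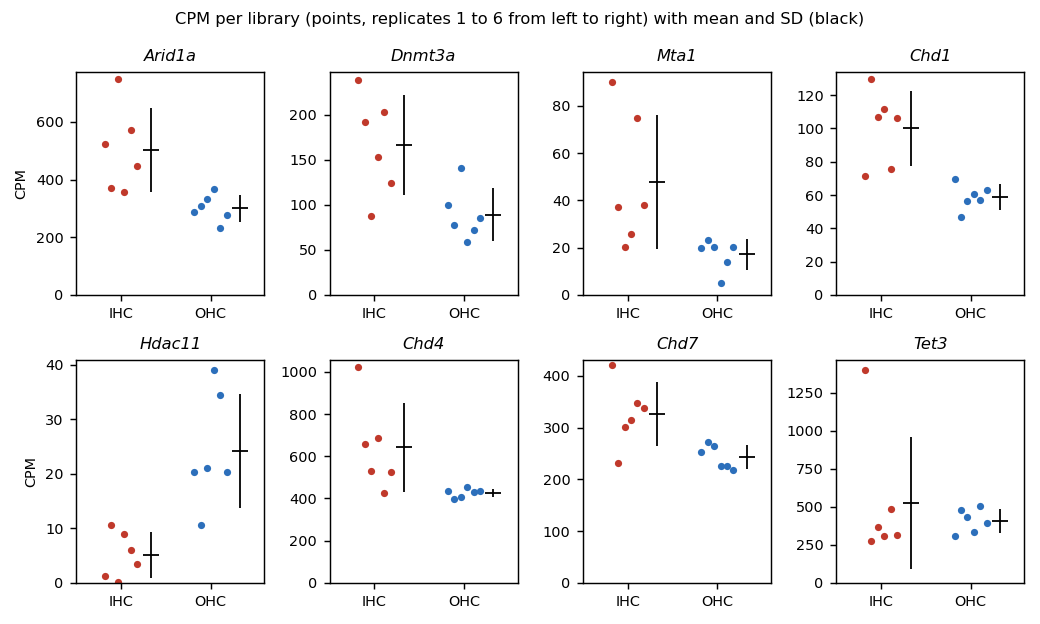
CPM in each library for selected chromatin regulators, IHC pools in red and OHC pools in blue, with the mean and SD (n = 6 each) in black; vertical scales differ between panels and start at 0. In Arid1a and Mta1 5 of 6 IHC points lie above all OHC points, in Chd1 all 6 do, and in Hdac11 all 6 OHC points lie above all IHC points.

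PRC2 places the repressive methyl mark on lysine 27 of histone H3, and 0 of its 4 genes passed. The catalytic subunit Ezh2, known from dividing cells, ranged from 1.504 to 12.3 CPM in IHCs (median 6.32) and from 5.61 to 16.6 in OHCs (median 11.8). Ezh1, the alternative enzyme of cells that no longer divide, ranged from 2.03 to 48.0 CPM (median 9.68) and from 5.75 to 11.2 (median 7.63). Both enzymes were low in both cell types and their ranges overlapped. The log2 ratio of Ezh1 to Ezh2 per kb within a library had a median of 0.46 in IHCs and -0.91 in OHCs, with ranges of -1.20 to 2.69 and -1.40 to 0.65. Markers of dividing cells summed to 25.5 to 58.7 CPM in IHCs and 31.9 to 68.5 in OHCs. Most of this was Pcna, with means of 20.4 and 19.0 CPM, and Mcm2, with 13.7 and 18.5. Mki67 was at 0.93 and 3.84, Top2a at 2.84 and 1.33, Ccnb1 at 0.168 and 0.056 and Cdk1 at 0 and 0.511. Suz12 and Eed, the other core subunits, were at 102 ± 27.8 and 14.03 ± 11.4 CPM in IHCs and at 132 ± 50.4 and 18.6 ± 9.15 in OHCs (SD, n = 6).

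None of the 5 histone demethylase and CoREST genes passed (0 of 5). Kdm1a, which removes methyl groups from lysine 4 of histone H3, ranged from 60.5 to 151 CPM in IHCs (median 87.9) and from 95.4 to 167 in OHCs (median 109). Its partner Rcor1 was at 61.6 ± 25.2 and 58.5 ± 13.1 CPM (SD, n = 6 each). The log2 fold changes were 0.24 (SE 0.25) and -0.07 (SE 0.29). The intervals of 1.96 SE on either side were -0.25 to 0.73 and -0.64 to 0.49, and the ranges of the cell types overlapped for both genes. Kdm1a shares 11.3% of its exonic bases with Luzp1 on the other strand and Rcor1 23.9% with Gm48632 on the same strand.

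The H3 lysine 27 demethylases Kdm6b and Kdm6a had fold changes of opposite sign. Kdm6b ranged from 57.7 to 393 CPM in IHCs (median 162) and from 73.7 to 154 in OHCs (median 103), with a log2 fold change of -0.87 (SE 0.34, adjusted p = 0.143 in edgeR). It passed only when IHC replicate 2 was left out (adjusted p = 0.0361). Kdm6a was at 88.5 ± 20.9 CPM in IHCs and 121 ± 43.1 in OHCs, and its log2 fold change was 0.45 (SE 0.25, adjusted p = 0.323). Kdm4c, which acts on lysine 9, had 0.62 (SE 0.36).

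HDACs remove acetyl groups from histones and other proteins. None of the 4 class I enzymes passed, and their log2 fold changes lay within 0.02 and 0.14. Hdac1 was at 73.1 ± 18.04 CPM in IHCs and 75.4 ± 33.2 in OHCs, and Hdac2, its partner in NuRD and CoREST, at 94.0 ± 30.6 and 104 ± 29.9 (SD, n = 6 each). Hdac3, of the NCoR complex, was at 63.6 ± 18.02 and 64.4 ± 14.1. Hdac8 was at 2.77 ± 1.81 and 3.004 ± 2.90 CPM. The intervals of Hdac1, Hdac2 and Hdac3 lay within a 2-fold difference, and that of Hdac8 did not. The class IIa enzymes Hdac4, Hdac5, Hdac7 and Hdac9, which shuttle between nucleus and cytoplasm, all had log2 fold changes below 0 (-0.10 to -0.63), and 0 of 4 passed. Hdac5 shares 29.99% and Hdac7 24.1% of exonic bases with genes on the opposite strand.

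Hdac11, the single class IV enzyme and known to remove fatty acyl groups, ranged from 0.209 to 10.5 CPM in IHCs (median 4.69) and from 10.5 to 38.99 in OHCs (median 20.7). All OHC pools lay above all IHC pools, with the lowest OHC value (replicate 2) close to the highest IHC value (replicate 2). The log2 fold change was 2.25 (SE 0.69) and the adjusted p 0.0571 in edgeR. It passed with no low-count filter, under DESeq2, the exact test of edgeR and limma-voom, and when IHC replicate 2 or 3 was left out. Endothelial markers were also higher in OHC pools, at 11.6 to 202 CPM, and their part in the Hdac11 difference was not tested. Hdac10, a polyamine deacetylase, ranged from 0 to 2.70 CPM in IHCs and from 0.133 to 9.01 in OHCs, and its fitted difference was 2.27 on the log2 scale (SE 1.30, adjusted p = 0.324). Hdac6, which deacetylates tubulin in the cytoplasm, had -1.40 (SE 0.88, adjusted p = 0.374), and a single IHC pool reached 27.1 CPM.

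DNA methylation is written by the DNMT enzymes and removed through TET enzymes, and 1 of the 6 genes passed. Dnmt3a ranged from 87.8 to 239 CPM in IHCs (median 173) and from 58.1 to 141 in OHCs (median 81.7). Of the IHC pools 4 of 6 lay above every OHC pool, and the lowest IHC pool, replicate 3, lay well inside the OHC range. The log2 fold change was -0.90 (SE 0.27) and the adjusted p 0.0499 in edgeR, at the threshold itself. It passed in 3 of the 12 fits with 1 library left out, those without IHC replicate 3 or 6 or OHC replicate 3, with adjusted p from 0.0239 to 0.113 over the 12. It was also lost with DESeq2 size factors and under limma-voom, and without any other library (IHC replicate 1, 2, 4 or 5, or OHC replicate 1, 2, 4, 5 or 6).

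Dnmt1, which copies methylation after replication, was at 75.7 ± 28.7 CPM in IHCs and 56.8 ± 14.96 in OHCs (SD, n = 6 each), with a log2 fold change of -0.41 (SE 0.29). Dnmt3b, the other enzyme for unmethylated DNA, was low, at 0 to 6.86 CPM in IHCs and 0.133 to 11.8 in OHCs. Tet1, Tet2 and Tet3 had log2 fold changes of -0.27, -0.19 and -0.36, and none passed. Tet3 reached 1399.6 CPM in IHC replicate 1, where the next IHC pool was at 482, and its log2 fold change was 0.21 without that library. Per kb, Tet3 exceeded Tet1 in every library, with a median log2 ratio of 1.28 in IHCs and 2.04 in OHCs.

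MTA proteins scaffold NuRD by holding Hdac1 and Hdac2. Mta1 ranged from 20.3 to 90.1 CPM in IHCs (median 37.6) and from 4.94 to 23.2 in OHCs (median 20.1). The 5 higher IHC pools lay above every OHC pool, and IHC replicate 3 lay within the OHC range. Mta1 had a log2 fold change of -1.48 (SE 0.44) with an adjusted p of 0.0499 in edgeR, which likewise sat at the threshold. It passed in 2 of the 12 fits with 1 library left out, those without IHC replicate 3 or 4, with adjusted p from 0.0321 to 0.109 over the 12, and was lost without each of the other 10 libraries, with DESeq2 size factors and under limma-voom. Mta2, at 53.4 ± 15.4 CPM in IHCs and 53.9 ± 13.5 in OHCs (SD, n = 6 each), had a log2 fold change of 0.01 (SE 0.28). Mta3 had -0.46 (SE 0.34). Of the 3 scaffold genes 1 was called.

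**Figure D4:**
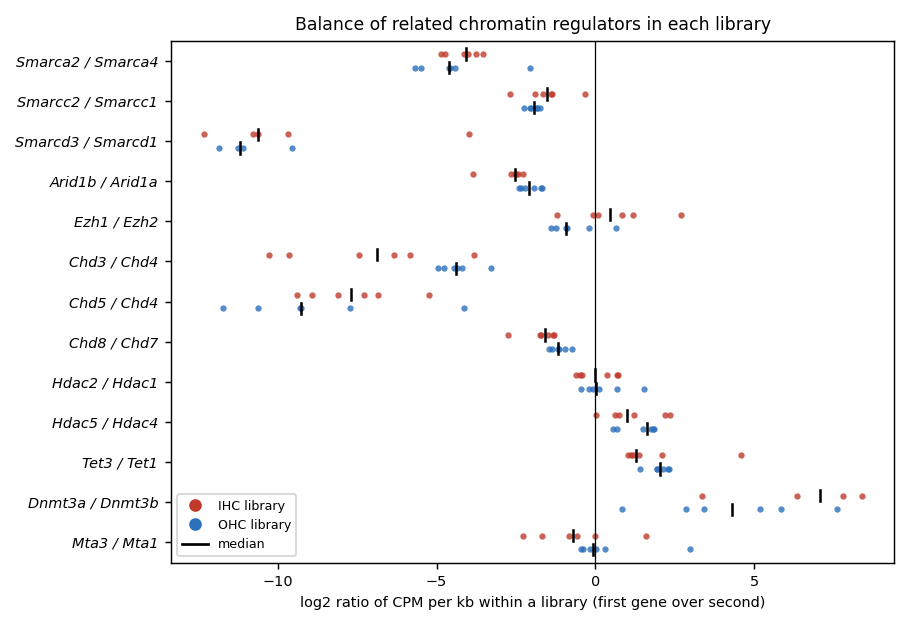
Log2 ratio per kb of exon of 13 pairs of related chromatin regulators within each library, with IHC pools in red, OHC pools in blue and medians as black bars. The ranges of the cell types overlap in all 13 pairs, and the pools spread most where a low gene enters the ratio, as in Smarcd3 to Smarcd1 and Dnmt3a to Dnmt3b.

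Related genes that can replace each other in a complex were compared within a library, which takes out library size. In all 13 pairs the range over IHC pools overlapped that over OHC pools. Hdac2 and Hdac1 were near equal, with a median log2 ratio per kb of -0.03 in IHCs and 0.02 in OHCs. Hdac5 exceeded Hdac4, at 0.98 and 1.63. Mta3 relative to Mta1 was at -0.71 and -0.08. Dnmt3a exceeded Dnmt3b in every library with both, at 7.07 in 4 IHC libraries and 4.31 in 6 OHC libraries.

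A further 115 genes of chromatin were read from 7 lists: other subunits of BAF, ISWI and INO80, of NuRD and CoREST, and of Polycomb, histone demethylases and methyltransferases, acetylation, and readers of DNA methylation. Of the 111 tested, 4 were called in IHCs (3.60%, beside 3.81% of all genes tested) and 1 in OHCs (0.901%, beside 2.44%), with a median log2 fold change of -0.19. All IHC pools lay above all OHC pools in 2 of the 111, beside 2.37% of all genes. The reverse held in 1, Mtf2, which was not called, beside 2.22% of all genes. In IHCs 3 of the 4 were among the 15 acetylation genes. Sirt2, a deacetylase of tubulin and histones, ranged from 146 to 387 CPM in IHCs (median 184) and from 34.7 to 122 in OHCs (median 58.8), with no overlap (log2 fold change -1.71, SE 0.31, adjusted p = 0.00199 in edgeR). Kat2a (Gcn5), an acetyltransferase, ranged from 44.8 to 138 and from 10.7 to 43.7 CPM, again with no overlap (log2 fold change -1.47, SE 0.34, adjusted p = 0.0131). Both stayed called in all 12 fits with 1 library left out, which Arid1a, Dnmt3a and Mta1 did not.

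Crebbp, the acetyltransferase CBP, ranged from 316 to 789 CPM in IHCs and from 229 to 334 in OHCs (log2 fold change -0.81, SE 0.21, adjusted p = 0.0265 in edgeR), and was called in 9 of the 12 fits. Srcap, a remodeller that loads the histone variant H2A.Z, had -1.40 (SE 0.38, adjusted p = 0.0305), with 61.0% of its exonic bases in genes overlapping on the same strand, and was called in 6 of 12. Pbrm1, the subunit that defines PBAF with Arid2, was the 1 gene called in OHCs. It ranged from 90.2 to 203 CPM in IHCs and from 194 to 308 in OHCs (log2 fold change 0.79, SE 0.23, adjusted p = 0.0475), with 5 of 6 OHC pools above every IHC pool, and was called in 4 of 12. None of the 15 other NuRD and CoREST genes, 20 Polycomb genes, 12 demethylases, 20 methyltransferases or 7 readers of DNA methylation tested was called.

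**Figure D5:**
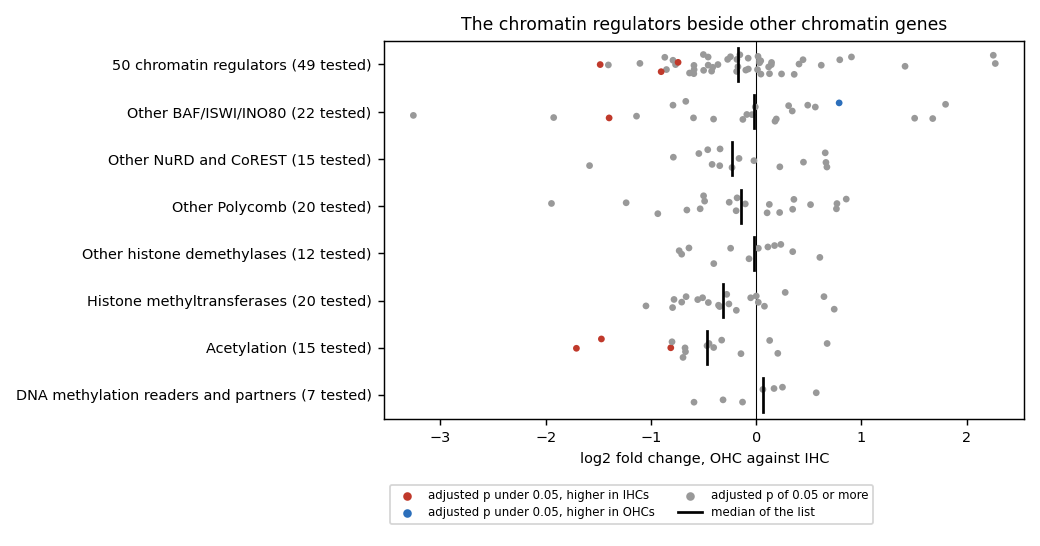
Log2 fold change, OHC against IHC, of the 49 tested chromatin regulators (top row) and of the genes tested in each of the 7 further lists, 1 point a gene, with the median as a black bar; red and blue points had an adjusted p under 0.05. In the further lists the red points are Sirt2, Kat2a and Crebbp among the acetylation genes and Srcap among the remodellers, and the blue point is Pbrm1.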

How the data were processed

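RNA-seq was analysed from 12 libraries, 6 of sorted IHCs and 6 of sorted OHCs, with groups taken from the sample labels. Per the labels, ribosomal RNA was removed, cDNA was amplified and libraries were read as paired ends. The deposited values are raw counts per gene, not normalized, which the authors made with Trimmomatic, STAR and HTSeq on GRCm39 with GENCODE vM27. Tool versions, and whether HTSeq counted by strand, are not given in the sources used here, so reads of genes that overlap on opposite strands may not be told apart. The 5 summary lines of each file, among them reads without a feature (9.32% to 15.9% of all lines in IHCs and 13.8% to 33.3% in OHCs), were left out.

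Counts were tested in R 4.3.3 with edgeR 4.0.16: filterByExpr (minimum count 10, minimum total 15), TMM normalization, glmQLFit and glmQLFTest, OHC against IHC, with Benjamini-Hochberg adjustment over all 13269 genes and a threshold of 0.05. The SE was the absolute log2 fold change divided by the square root of the F statistic of that test. CPM were taken on TMM-normalized library sizes and divided by merged exon length (GENCODE vM39) for levels per kb. Tables were made in Python 3.11.15 with pandas 2.3.3 and numpy 2.4.6. Reads carry no molecular identifiers, so precision was taken from the spread between libraries (common dispersion 0.718 among IHCs and 0.581 among OHCs). The fit was also run on simulated data with 200 changed genes, fewer than were called here, where it missed 2-fold changes. That setting differs from these data, in which Arid1a and Dnmt3a were called below 2-fold, so its recovery is not that of this fit. A gene that was not called may still differ. Alternatives were DESeq2 1.42.0 and its size factors, ribosomal RNA left out of the normalization, other count filters, the exact test of edgeR, voom in limma 3.58.1, a replicate block and leaving out each library.

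The members and gene lists were chosen with earlier results of these data known. All 50 genes of the list were described by role, with the lowest, median and highest library for those called or nearest to a call, and of the other chromatin genes those that passed the test were named. Promoter sequences came from RefSeq.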

Additional observations from a re-analysis of the deposited data

Results flagged for a closer look

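In 15 of 100 groups (50 genes in each cell type, 6 libraries a group) 1 library stood apart from the other 5, in that its gap to the nearest other library took more than 0.625 of the whole range, Dixon's 95% critical value for 6. Chance gives this in about 1 in 20 groups of normally distributed values, and whether CPM here are so distributed was not tested. In every case the library was the highest of its group.

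Among CHD remodellers, Chd3 was at 42.5 CPM in IHC replicate 2, with the next pool at 11.6, and at 40.2 in OHC replicate 5, with the next at 21.9. Chd5 was at 26.9 CPM in OHC replicate 4, where the next OHC pool was at 2.16. Among BAF subunits, Smarca2 reached 73.0 CPM in OHC replicate 5, Smarcb1 71.9 in OHC replicate 6 and Smarce1 116 in OHC replicate 4, and the next pools stood at 25.3, 38.0 and 53.8. Smarcd3 was at 1.94 CPM in IHC replicate 4 and at 0.153 or less in the other IHC pools.

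Ezh1 was at 48.0 CPM in IHC replicate 5 (next 15.4) and Kdm1a at 167 in OHC replicate 3 (next 121). Of the deacetylases, Hdac7 was at 14.8 CPM in OHC replicate 5 (next 6.95) and Hdac6 at 27.1 in IHC replicate 3 (next 6.99). Dnmt3b was at 6.86 CPM in IHC replicate 2 (next 0.680). Tet3 was at 1399.6 CPM, from 21399 counts, in IHC replicate 1 (next 482), the library with the most ribosomal RNA. Mta3 was at 125 CPM in IHC replicate 3 (next 52.9) and at 80.9 in OHC replicate 4 (next 42.4). None of the 3 genes called between cell types was among these, and no cause was tested.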

How the results depend on the processing

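Arid1a, Dnmt3a and Mta1 kept their direction under every alternative run. The number of chromatin regulators called in IHCs was 3, 5 under DESeq2 and 0 under the replicate block, and in OHCs 0, but 1 (Hdac11) under DESeq2, the exact test, voom, no low-count filter and the replicate block. With DESeq2 size factors Arid1a alone of the 3 stayed called, as under voom. Over all genes, 506 were called in IHCs (893 with no filter, 1339 under DESeq2) and 324 in OHCs (918 with no filter, 1590 under DESeq2, 519 under the exact test, 530 under voom), so that the share of calls towards IHCs moved from 61.0% to 49.3% with no filter and 45.7% under DESeq2. Of the other chromatin genes DESeq2 called 10 and 3, against 4 and 1. With 1 library left out, the counts were 369 to 551 and 225 to 402 over all genes, 0 to 2 and 0 to 1 for the chromatin regulators and 2 to 11 and 0 to 1 for the other chromatin genes, and the median log2 fold change of the chromatin regulators, -0.17, was -0.25 to -0.09.

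No pairing by replicate number was seen: deviations of same-numbered libraries correlated at -0.031 to 0.018, and 0 of 6 correlated best with their own number. Whether IHC and OHC pools shared pups cannot be told from this, since the labels do not give the animals. For its separate pools for chromatin accessibility, the paper took both cell types from every pup. In the fit with the replicate block 0 chromatin regulators were called in IHCs, so that Arid1a, Dnmt3a and Mta1 were not called (adjusted p = 0.0633, 0.0730 and 0.0577 in edgeR), and 1 in OHCs.

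The sign of the log2 fold change turned only in genes that were not called. Chd5 went to -0.0051 without ribosomal RNA, -1.54 under voom and -1.90 under the block, Hdac1 to -0.047 and -0.0531, Hdac8 to -0.40 and -0.37 and Hdac5 to 0.0362 and 0.0433 under voom and the block, Hdac3 to -0.0141 and Tet3 to 0.0092 under voom. With 1 library left out, log2 fold changes crossed 0 for Chd2 (-0.0138 to 0.29), Chd5 (-2.67 to 0.70), Chd6 (-0.10 to 0.11), Smarcc1 (-0.0213 to 0.0918), Arid1b (-0.20 to 0.0685), Rcor1 (-0.19 to 0.14), Hdac1 (-0.14 to 0.21), Hdac2 (-0.0215 to 0.30), Hdac3 (-0.10 to 0.13), Hdac4 (-0.25 to 0.0042), Hdac5 (-0.33 to 0.18), Hdac8 (-0.23 to 0.43), Hdac9 (-0.37 to 0.0199), Tet3 (-0.50 to 0.21) and Mta2 (-0.11 to 0.15). The cause was not tested.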
